A study of Mus musculus with 3 samples.

Results

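The transcript levels of 9 genes that encode mesenchymal transcription factors, *En1*, *Twist1*, *Twist2*, *Prrx1*, *Tbx15*, *Tbx18*, *Osr1*, *Osr2* and *Ebf1*, were followed through single-cell RNA-seq of mouse dorsal skin. They were chosen by name, and all 9 had a row among the 19165 genes of the deposited matrix. The study compared skin at the induction (E13.5), organogenesis (E16.5) and cytodifferentiation (P0) stages of hair follicle development, with 1 library per stage from pooled skin of C57BL/6 males (skin of several fetuses or newborns per pool, per the study's methods). Skin was dissociated with trypsin and EDTA at E13.5 and E16.5 and with collagenase IV at P0, so stage and library cannot be told apart, nor can dissociation where P0 is compared. With 1 library per group there is no test: levels are unique molecular identifiers (UMIs, counts of captured transcripts) summed over the cells of a group and scaled to a total of 1000000 (CPM), with exact Poisson 95% intervals that cover counting error only, and a gene is called higher or lower where log2 of CPM + 10 differs by at least 1.

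These factors belong to families with different ways of binding DNA. Twist1 and Twist2 (Dermo1) are basic helix-loop-helix proteins that pair with E proteins and bind E-boxes, and Twist2 is known for its part in dermal development. En1 and Prrx1 are homeodomain proteins, and the *En1* lineage in the trunk gives rise to most fibroblasts of the dorsal dermis. Tbx15 and Tbx18 carry a T-box; Tbx15 sets the dorsoventral border of coat pigment in the mouse, and *Tbx18* is a known marker of the dermal papilla precursor lineage and of mural cells. Osr1 and Osr2 are zinc finger proteins of the odd-skipped family that mark irregular connective tissue. Ebf1 is a factor of the COE family with roles in B cells, adipocytes, pericytes and the dermal papilla.

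The genes lie on 6 chromosomes of GRCm38, and all are protein coding (GENCODE vM21). *En1* is at chr1:120602418-120607992, *Twist2* at chr1:91801461-91848028 and *Prrx1* at chr1:163245119-163313710. *Twist1* is at chr12:33957671-33959829 and *Osr1* at chr12:9570116-9581500. *Tbx15* is at chr3:99240381-99354259, *Tbx18* at chr9:87702800-87731260, *Osr2* at chr15:35296098-35303305 and *Ebf1* at chr11:44617317-45008091. RefSeq windows of GRCm38.p6 from 250 bases before to 50 after the start were matched for 6 of the 9 genes (7 windows). The windows below are shown because *Twist2* and *Ebf1* lay on opposite sides of the upper and deep dermis in each library, because *Twist1* is the paralog of *Twist2*, and because *En1* had the most matches of the E-box among these windows, the motif that bHLH proteins bind. Capitals mark every match of CANNTG, which reads the same on both strands.
En1: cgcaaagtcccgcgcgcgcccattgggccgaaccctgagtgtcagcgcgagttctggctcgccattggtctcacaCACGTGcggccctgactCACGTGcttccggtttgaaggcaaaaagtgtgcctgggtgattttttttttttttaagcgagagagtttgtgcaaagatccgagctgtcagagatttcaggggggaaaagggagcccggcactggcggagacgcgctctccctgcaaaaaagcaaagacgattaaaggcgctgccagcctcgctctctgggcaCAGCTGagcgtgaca
Twist1: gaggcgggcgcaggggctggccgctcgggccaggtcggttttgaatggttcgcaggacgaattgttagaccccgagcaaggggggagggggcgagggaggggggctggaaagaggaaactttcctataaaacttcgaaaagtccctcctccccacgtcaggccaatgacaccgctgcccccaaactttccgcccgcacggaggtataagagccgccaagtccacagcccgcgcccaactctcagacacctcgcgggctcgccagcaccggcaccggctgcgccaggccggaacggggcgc
Twist2: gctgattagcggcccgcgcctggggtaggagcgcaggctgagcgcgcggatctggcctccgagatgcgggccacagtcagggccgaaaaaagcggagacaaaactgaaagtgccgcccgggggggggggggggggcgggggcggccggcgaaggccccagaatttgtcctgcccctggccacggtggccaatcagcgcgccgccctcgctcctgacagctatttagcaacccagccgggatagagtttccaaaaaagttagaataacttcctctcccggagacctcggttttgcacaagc
Ebf1: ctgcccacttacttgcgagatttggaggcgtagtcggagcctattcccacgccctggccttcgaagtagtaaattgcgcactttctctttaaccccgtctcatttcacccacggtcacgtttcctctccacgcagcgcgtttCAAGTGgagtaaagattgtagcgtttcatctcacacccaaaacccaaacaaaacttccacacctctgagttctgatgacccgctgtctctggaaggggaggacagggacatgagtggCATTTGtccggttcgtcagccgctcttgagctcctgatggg
These windows are chr1:120602237-120602536 for *En1*, chr12:33957421-33957720 for *Twist1*, chr1:91801211-91801510 for *Twist2* and chr11:44619978-44620277 for the second of 2 *Ebf1* starts, all on the plus strand. *En1* held 3 matches and *Ebf1* held 2, and none was in the *Twist1* and *Twist2* windows. In all, CANNTG was in 3 of the 7 matched windows (*En1*, *Tbx18* and the second *Ebf1* start) and in 72.3% of 32851 promoter windows of this length. Motifs of the other families, searched on both strands, were rarer: TAATTA (homeodomain) was in 1 of the 7 windows, that of *Prrx1*, and in 5.29% of all; AGGTGT (T-box) was in 2, those of *Twist1* and *Ebf1*, and in 13.7% of all; and CCCNNGGG (EBF) was in 1, that of *Twist2*, and in 13.7% of all. A match is a description of letters and not of binding. The *Twist1* and *Twist2* windows were also GC-rich, at 66.0% and 64.7% against a median of 52.7%, with 27 and 25 CpG pairs against a median of 7. The *Ebf1* window shown had 53.0% GC, and that of the first start, at chr11:44617850-44618149, had 36.7%.

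The libraries held 5962 (E13.5), 5208 (E16.5) and 5065 (P0) barcodes and 53334740, 66239195 and 46599806 UMIs. The study gives fewer cells at each stage after its filter, although every barcode met its minimum of genes per cell. Between 32 and 44 barcodes were shared by each pair of libraries, under 1% of either. Clusters were named from markers other than the 9 genes. Dermal-like cells (*Col1a1*, *Lum*, *Pdgfra* and related markers) numbered 2119, 3296 and 2688 cells, with median depths of 8417, 10398 and 6054 UMIs. Within them, upper dermal-like cells (Wnt target genes, *Crabp1*, *Lef1*) numbered 681, 1152 and 395, and deep dermal-like cells (*Dlk1*, *Mfap5*, *Clec3b*) numbered 163, 644 and 723. A dermal condensate-like (DC-like) group of 408 cells was found at E16.5 and a dermal papilla-like (DP-like) group of 190 cells at P0, and none at E13.5. Both were named from *Sox2*, *Sox18*, *Foxd1* and related markers. The remaining 1275, 1092 and 1336 dermal-like cells had no subset name, and a further 44 at P0 were adipocyte-like. Most of the unnamed cells had too few subset markers high or a marker mean under the minimum of 1. With that minimum at 0.5, upper cells numbered 1044, 1253 and 447 and deep cells 442, 1273 and 1624. At P0, 4 sub-clusters of 27 to 43 cells had upper dermal markers but were led by condensate or papilla genes, and 1 of 11 cells had adipocyte markers but was led by epithelial genes. Pericyte-like cells numbered 178 at E16.5 and 241 at P0.

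Dermal transcripts were also found in cells of other lineages. Non-mesenchymal cells were epithelial-, endothelial-, immune-, Schwann- and melanocyte-like cells, with muscle- and erythroid-like cells before birth and neural-like cells at E13.5, so their mix differed between stages: 530 of 3184, 948 of 1734 and 1539 of 2078 were epithelial-like. The summed level of the 10 dermal markers in them was 3546, 3824 and 2057 CPM and in dermal-like cells 8955, 29160 and 41830 CPM. As a share, the non-mesenchymal level thus came to 39.6%, 13.1% and 4.92% of that in dermal-like cells from the earliest stage to birth. In erythroid-like cells it was 71.5% at E13.5 and 63.6% at E16.5. The part of free RNA or doublets in these levels was not tested.

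Dermal-like cells carried more of all 9 genes than non-mesenchymal cells in the E16.5 and P0 libraries, and of 7 of the 9 in the E13.5 library. Among all genes, 0.943% of 18023 were called higher in this comparison at E13.5, 3.22% of 17879 at E16.5 and 4.13% of 17230 at P0; the 9 genes were chosen as dermal factors, so this checks their label. Median log2 differences over the 9 were 1.43, 2.36 and 3.16. *Twist2* was at 620 CPM in dermal-like and 177 CPM in non-mesenchymal cells at E13.5, at 1027 and 107 CPM at E16.5, and at 693 and 34.9 CPM at P0. *Osr1* was at 299 and 86.6 CPM at E13.5, at 138 and 13.8 CPM at E16.5, and at 50.3 and 1.5 CPM at P0. The 2 genes not called at E13.5 were *Tbx18*, at 23.0 and 7.99 CPM (log2 difference 0.88, 0.75 to 1.0), and *Ebf1*, at 124 and 156 CPM (-0.30, -0.37 to -0.24).

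As a share of the dermal-like level, 8, 8 and 4 of the 9 genes in the E13.5, E16.5 and P0 libraries were no higher in non-mesenchymal cells than the dermal marker list was. These counts compare point values with the sum of the list. Its single genes ran from 29.0% to 52.8%, 9.39% to 22.7% and 3.58% to 13.4%. Single lineages differed from all non-mesenchymal cells: at E13.5 the count was 5 in neural-like and 6 in muscle- and melanocyte-like cells. At E16.5 the count was 9 in Schwann- and epithelial-like cells. It was 1 in erythroid-like and 3 in muscle-like cells, but these numbered only 33 and 29 cells, with 580420 and 360611 UMIs. At P0 it ran from 2 in endothelial-like to 9 in Schwann-like cells. In the latter *En1*, *Tbx18* and *Osr1* were each at 3.33 CPM (0.403 to 12.0). At E13.5 the levels of the 8 in non-mesenchymal cells were between 28.6% and 34.7% of the dermal-like level, below the 39.6% of the list, and the one above it was *Ebf1* at 125%. In epithelial-like cells at E16.5 all 9 were at or below the 12.5% of the list, from 6.20% for *En1* to 9.60% for *Tbx18*. So no level of *En1*, *Twist1*, *Twist2*, *Prrx1*, *Tbx15*, *Tbx18*, *Osr1*, *Osr2* or *Ebf1* in E16.5 epithelial-like cells stood above what dermal markers showed there. At P0 the list was at 4.11% in epithelial-like cells and the 9 genes were between 2.79% and 5.24%. The point values of *Twist2*, *Prrx1*, *Tbx15*, *Tbx18* and *Ebf1* were above the sum of the list. Single genes of the list ran from 2.71% to 15.2% in these cells, a range that held all 9. *Tbx18* was at only 1.25 CPM (0.810 to 1.85) there. These epithelial-like cells included a cluster of 13 cells led by keratin genes together with *Ebf1*, *Serpine2*, *Rspo3* and *Inhba*. The part of that cluster in these levels was not tested.

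**Figure D1:**
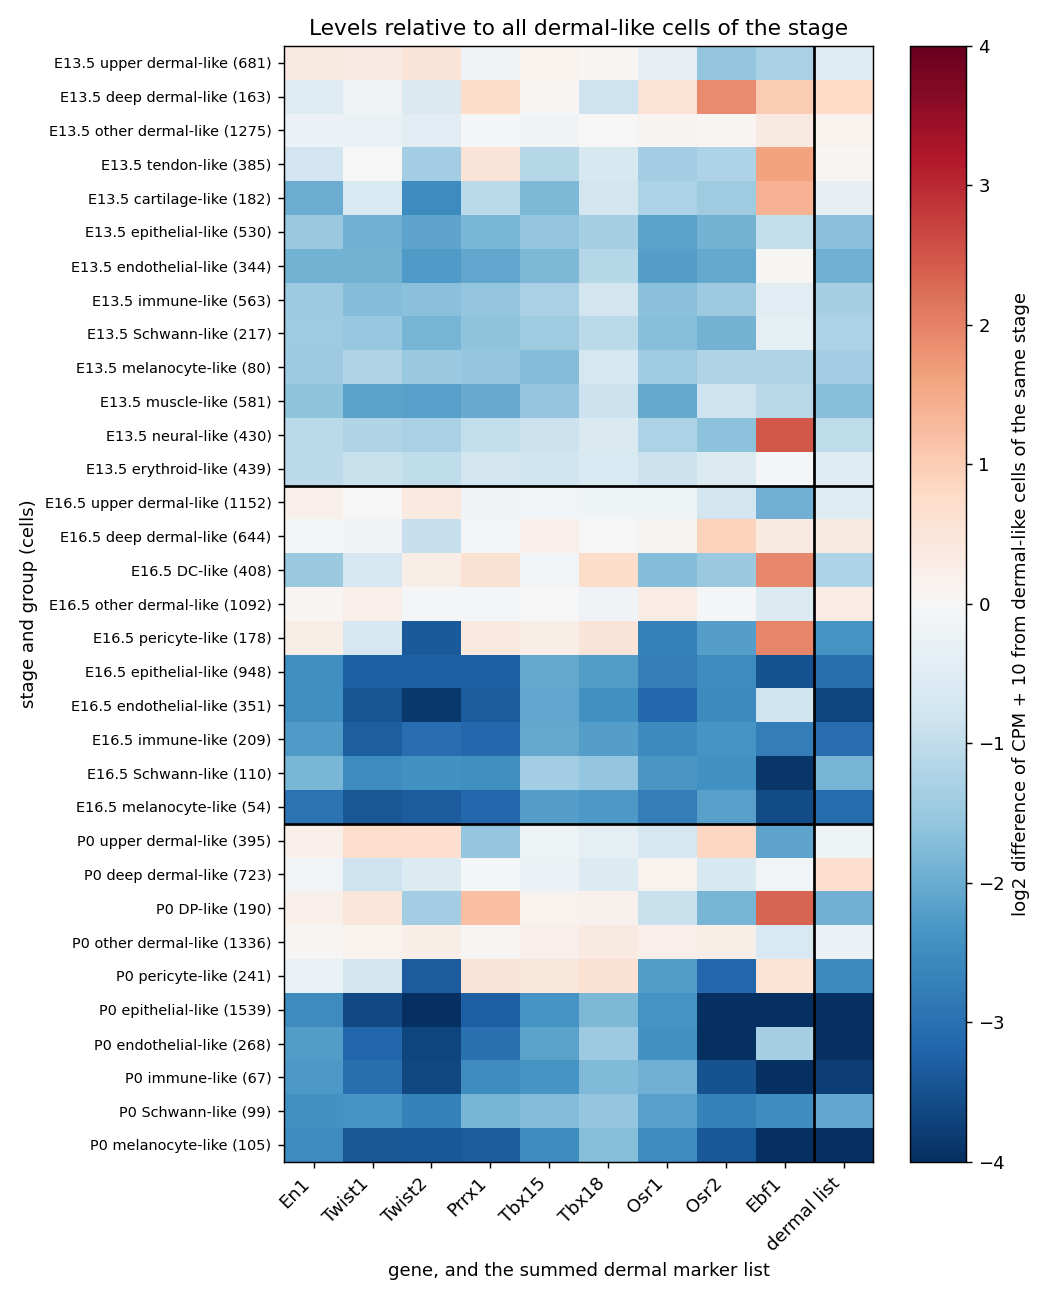
Heat map of the log2 difference of CPM + 10 between each group of at least 50 cells (rows, with cell numbers, in 3 blocks by stage) and all dermal-like cells of the same stage, for the 9 genes and for the summed dermal marker list (last column). Blue columns outside the dermis are deeper at E16.5 and P0 than at E13.5, as is the list. Between dermal-like and all non-mesenchymal cells, the differences of *Osr1* and *Tbx18* were smaller at P0 (2.39 and 1.74) than at E16.5 (2.64 and 2.15). *Ebf1* stands out in neural-, tendon-, cartilage-, DC-, DP-, pericyte- and endothelial-like rows.

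*Ebf1* was the member with the widest range outside the dermis. At E13.5 it was at 742 CPM (711 to 773) in 430 neural-like cells (*Map2*, *Stmn3*, *Elavl3*), against 124 CPM in dermal-like cells, and those neural-like cells carried the dermal list at 49.5% of its dermal level. It was at 396 CPM in tendon-like cells (*Scx*, *Tnmd*) and 340 CPM in cartilage-like cells at that stage, and at 128 CPM in endothelial-like cells. The cartilage-like cells carried 8 cartilage markers at 1185 CPM in sum. They also carried 5 meninges markers at 287 CPM, against 6.26 CPM in dermal-like cells. In pericyte-like cells (*Rgs5*, *Notch3*, *Abcc9*) *Ebf1* reached 1551 CPM (1498 to 1606) in the E16.5 and 1080 CPM (1032 to 1131) in the P0 library, which was 394% and 147% of the dermal-like level. Endothelial-like cells had 222 CPM (E16.5) and 290 CPM (P0), 56.4% and 39.3% of the dermal-like level, where the dermal list was at 7.89% and 5.52%. After each cell was thinned to 3500 UMIs, 47.3% of E16.5 endothelial-like and 96.1% of pericyte-like cells had an *Ebf1* UMI, against 6.22% of immune-like cells; unthinned, the shares were 85.5%, 99.4% and 17.2%, at median depths of 16540, 9710 and 10224 UMIs.

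Pericyte-like cells divided the 9 genes. *En1*, *Prrx1*, *Tbx15* and *Tbx18* were at 122%, 131%, 123% and 151% of their dermal-like levels in E16.5 pericyte-like cells and at 80.9%, 146%, 143% and 169% in those of P0. *Twist1* was at 61.0% and 57.3%. *Twist2*, *Osr1* and *Osr2* were at 8.92%, 9.25% and 11.1% at E16.5 and at 8.72%, 5.84% and 9.77% at P0, below the 19.1% and 17.1% of the dermal list. The paralogs *Twist1* and *Twist2* thus differed: *Twist1* was at 188 CPM (169 to 208) and *Twist2* at 91.7 CPM (79.0 to 106) in E16.5 pericyte-like cells, where the dermal-like levels were 308 and 1027 CPM.

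Muscle-, tendon- and cartilage-like cells of E13.5 gave a further contrast. *Osr2* was at 51.9 CPM in muscle-like cells, 51.6% of the dermal-like level, where the dermal list was at 30.4%. *Prrx1* was at 685 CPM (659 to 712) in tendon-like cells, 142% of the dermal-like level, and *Twist1* was at 260 CPM there and 260 CPM in dermal-like cells. *Twist2* was at 231 CPM in tendon-like cells, 37.2%, and 99.7 CPM in cartilage-like cells, 16.1%, whereas those groups carried the dermal list at 106% and 79.9%. *En1*, *Tbx15*, *Osr1* and *Osr2* were between 35.8% and 53.4% in tendon-like cells.

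Between stages, the 9 genes moved in different directions in dermal-like cells. From E13.5 to E16.5, 2 of 9 were called higher and 1 lower, where 1.31% and 1.35% of 18290 genes were called higher and lower. From E16.5 to P0, 1 was called higher and 2 lower, where 1.42% and 1.85% of 17915 genes were. The median log2 difference was -0.02 and -0.03 over all genes tested, and -0.08 and -0.12 over those with at least 50 UMIs. In these sums, a change in the mix of dermal cells and a change within each cell cannot be told apart.

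*Osr2* had the steepest change. Its level was 101 CPM (96.3 to 105) at E13.5, 75.0 CPM (72.3 to 77.9) at E16.5 and 583 CPM (572 to 594) at P0, which is 7.77-fold higher at P0 than at E16.5 (log2 difference 2.80, 2.75 to 2.86). In upper dermal-like cells it went from 40.8 to 1053 CPM between E16.5 and P0 and in deep dermal-like cells from 150 to 371 CPM. The share of dermal-like cells with an *Osr2* UMI, thinned to 3500 UMIs, was 19.4%, 18.1% and 72.7% at the 3 stages, and 6.10%, 1.71% and 7.09% in endothelial-like cells; unthinned it was 31.0%, 38.3% and 83.8%, and 13.1%, 5.98% and 16.4%. In non-mesenchymal cells *Osr2* was at 34.7, 6.78 and 24.5 CPM.

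Its relative *Osr1* was called lower at each step, whereas *Osr2* was not called at the first (-0.38). It was at 299 CPM (291 to 307) at E13.5, 138 CPM (134 to 142) at E16.5 and 50.3 CPM (47.1 to 53.7) at P0, with log2 differences of -1.06 (-1.11 to -1.01) and -1.29 (-1.38 to -1.21). Both were past the fold, although the first fell to -0.89 when the median was the naming reference. *Osr1* and *Osr2* UMIs were found together in 12.9%, 7.49% and 11.9% of thinned dermal-like cells, where the product of their separate shares was 11.3%, 6.16% and 11.0%.

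*Prrx1* was at 481, 396 and 166 CPM at the 3 stages, so that it was called lower at P0 than at E16.5 (-1.20, -1.26 to -1.15) and not between E13.5 and E16.5 (-0.27, -0.31 to -0.24). *Tbx18* was lowest at E13.5, at 23.0 CPM (21.0 to 25.3), highest at E16.5, at 68.0 CPM (65.4 to 70.7), and at 29.2 CPM (26.7 to 31.8) at P0. Its rise was called (1.24, 1.13 to 1.35), and its lower level at P0 was just inside the fold (-0.99, -1.10 to -0.89); 5 of 12 alternatives put it past the fold. *Tbx15* was at 98.6, 50.5 and 56.4 CPM, and its log2 difference of -0.84 from E13.5 to E16.5 was not called. *Ebf1* increased at both steps, from 124 to 393 and 736 CPM, and was called at the first (1.59, 1.53 to 1.65) and not at the second (0.89, 0.85 to 0.92).

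*En1* and the *Twist* genes were not called at either step. *En1* was the steadiest of the 9, at 78.6 CPM (74.7 to 82.6), 67.0 CPM (64.4 to 69.7) and 61.7 CPM (58.1 to 65.4). *Twist1* was at 260, 308 and 178 CPM and *Twist2* at 620, 1027 and 693 CPM, both highest at E16.5 with intervals that did not overlap those of the other stages. Thinned to 3500 UMIs, 77.9%, 90.4% and 82.1% of dermal-like cells had a *Twist2* UMI and 20.5%, 19.8% and 20.4% had an *En1* UMI. *Twist1* and *Twist2* were found together in 41.6%, 56.2% and 38.9% of thinned dermal-like cells, near the 39.7%, 55.0% and 36.8% of the product of their separate shares.

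**Figure D2:**
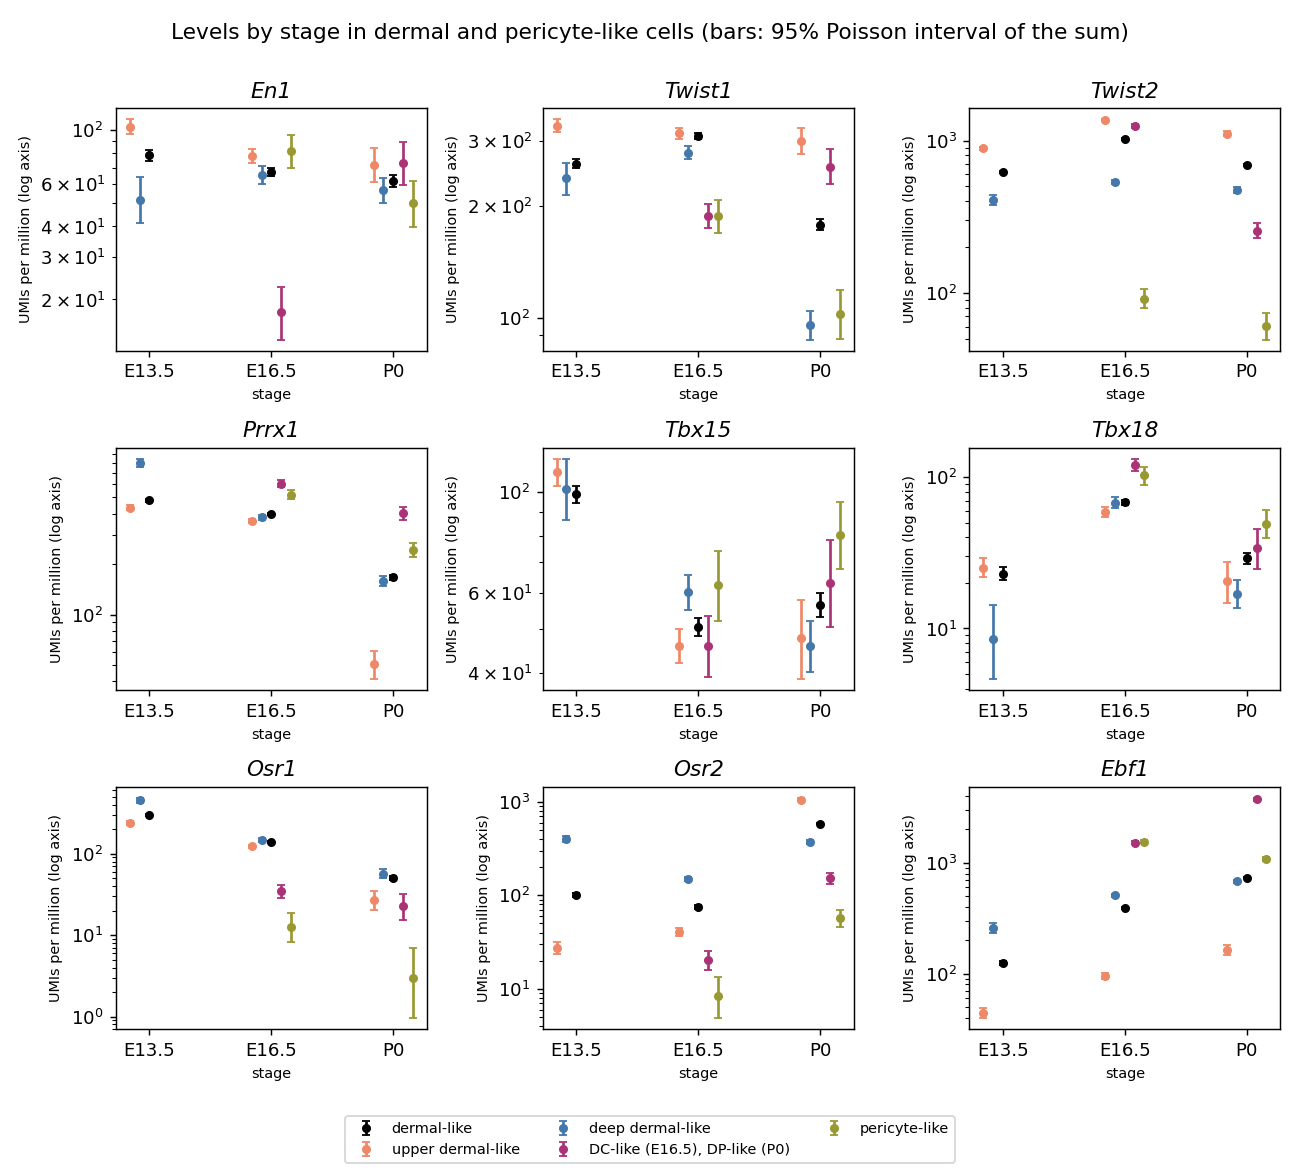
Levels of each gene in CPM (log axis, with its own range in each panel) at the 3 stages, in all dermal-like cells, upper and deep dermal-like cells, DC- or DP-like cells and pericyte-like cells; bars are 95% Poisson intervals of the summed UMIs. *Osr1* steps down at each stage, *Osr2* is 583 CPM in all dermal-like cells at P0 against 75.0 CPM at E16.5, and *En1* in DC-like cells lies below all other groups shown.

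Upper and deep dermal-like cells were then compared within each library. *Twist2* was the one member called higher in upper cells at all 3 stages, and *Ebf1* the one called lower at all 3. These calls were kept under all 8 alternatives at E13.5 and 10 of 11 at E16.5 for both genes, but at P0 in 6 of 12 for *Twist2* (lowest 0.71) and 6 of 12 for *Ebf1*. At E13.5, 1 of 9 was called higher and 2 lower, where 2.52% and 2.27% of 16318 genes were; at E16.5 the counts were again 1 and 2, against 0.953% and 1.94% of 16890 genes; and at P0 they were 3 and 2, against 2.3% and 2.34% of 15380 genes. Group sizes depended on the clustering: where the alternatives formed these groups, upper cells numbered 93 to 1549 at E16.5 and 115 to 1621 at P0, and deep cells 110 to 1624 at P0. Cell cycle genes took 1.33% of UMIs in upper and 0.427% in deep cells at E13.5, 1.23% and 0.890% at E16.5, and 0.167% and 0.179% at P0, and their part in these differences was not tested.

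*Twist2* was at 893 CPM (871 to 914) in upper and 411 CPM (380 to 443) in deep cells at E13.5, at 1359 CPM (1337 to 1380) and 534 CPM (519 to 550) at E16.5, and at 1112 CPM (1067 to 1158) and 475 CPM (456 to 494) at P0. The ratios were 2.17, 2.54 and 2.34. *Twist1* was closer between the layers before birth, at 329 and 237 CPM at E13.5 and 314 and 278 CPM at E16.5, and parted at P0, at 300 and 95.5 CPM (log2 difference 1.55, 1.39 to 1.71), a call kept in 11 of 12 alternatives and lost with a subset mean of 0.5 (0.87). Its upper level hardly differed between stages, whereas its deep level at P0 was below that at E16.5.

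*Ebf1* was at 44.3 CPM in upper and 259 CPM in deep cells at E13.5 (-2.31, -2.49 to -2.12), at 96.0 and 509 CPM at E16.5 (-2.29, -2.38 to -2.20), and at 165 and 681 CPM at P0 (-1.98, -2.14 to -1.83). The P0 value turned to 0.86 when all dermal-like cells were ranked on an upper-minus-deep marker score and its ends compared, and the E16.5 value came to -0.18. DC- and DP-like cells stay in such a ranking. The P0 upper level joined a sub-cluster of 365 cells at 86.0 CPM (165 UMIs) with one of 30 cells at 1002 CPM (181 UMIs). Marker means of these sub-clusters were 1.14 and 1.11, and those of the E13.5 deep one and the lowest E16.5 upper one were 1.04 and 1.05, all near the minimum of 1 for a name. *Prrx1* was lower in upper cells at P0, at 50.5 CPM (41.3 to 61.1) against 159 CPM (148 to 170), and turned to 0.35 under the same ranking. That call was kept in 5 of 12 alternatives. At E13.5 *Prrx1* was at 434 and 805 CPM, which did not reach the fold (-0.88), and at E16.5 it was at 362 and 379 CPM.

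*Osr2* changed sides. At E13.5 it was at 27.4 CPM (23.8 to 31.3) in upper and 401 CPM (371 to 433) in deep cells, the widest gap of any member between the layers (-3.46, -3.64 to -3.28). At E16.5 the gap was -1.65 (-1.78 to -1.52), with 40.8 and 150 CPM. At P0 upper cells were higher, at 1053 CPM (1010 to 1098) against 371 CPM (355 to 388), a difference of 1.48 (1.39 to 1.57). The sign held under all 8, 11 and 12 alternatives that gave a value at the 3 stages, although at P0 2 of 12 put it under the fold, the lowest at 0.83. *Osr1* was not called between the layers, at 238 and 451 CPM, 123 and 149 CPM, and 26.7 and 57.1 CPM in upper and deep cells. Its sign was not stable after E13.5: it ran from -2.07 (median as reference) to 0.09 (without called doublets) at E16.5 and from -1.07 (pseudocount 1) to 0.06 (resolution 2) at P0.

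*En1*, *Tbx15* and *Tbx18* were not called between the layers at any stage. *En1* was at 103 and 51.5 CPM, 78.4 and 65.3 CPM, and 71.9 and 56.3 CPM in upper and deep cells, with intervals of the log2 difference above 0. The E16.5 difference of 0.23 changed sign in 3 of 11 alternatives, to -0.95 at the furthest with the median as reference. *Tbx15* was at 111 and 101 CPM at E13.5 and 47.6 and 45.8 CPM at P0, with intervals of the difference that held 0. At E16.5 it was on the deep side, at 45.8 and 60.2 CPM in upper and deep cells (-0.33, -0.48 to -0.18). *Tbx18* rested on 14 UMIs in deep cells at E13.5, which gave 8.49 CPM (4.64 to 14.2) against 25.2 CPM in upper cells.

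**Figure D3:**
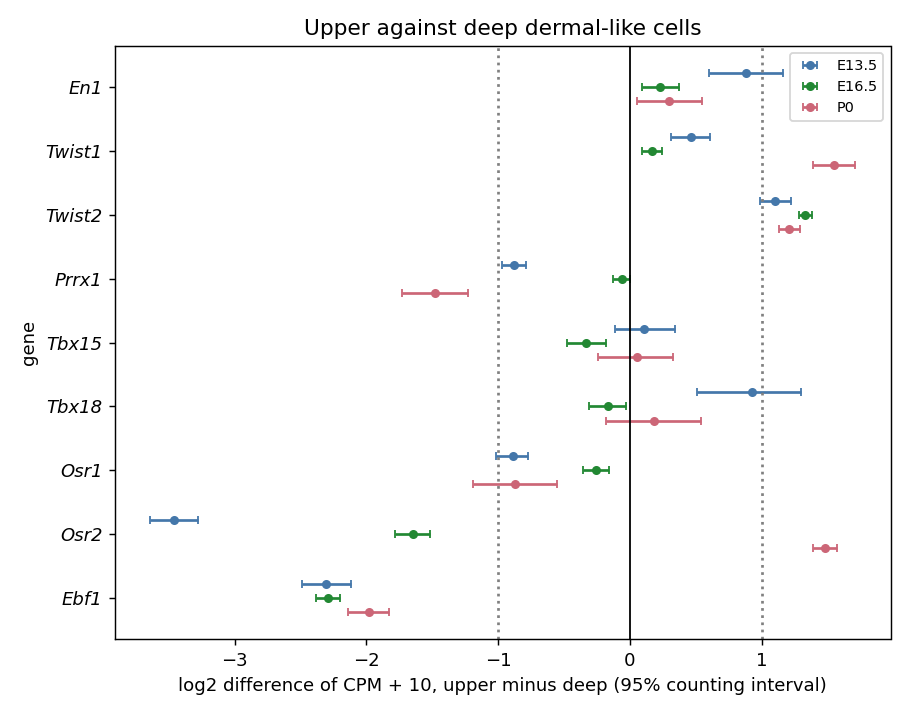
Log2 difference of CPM + 10 between upper and deep dermal-like cells for each gene at the 3 stages, with 95% counting intervals; dotted lines mark the fold. *Twist2* lies right of 1 and *Ebf1* left of -1 at every stage, and *Osr2* moves from -3.46 at E13.5 to 1.48 at P0.

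Condensates and papillae are the clustered fibroblasts that signal to the follicle epithelium. In DC-like cells of E16.5, *Ebf1* was higher and *En1* and *Osr1* were lower than in upper dermal-like cells: 1 of 9 was called higher and 2 lower, where 1.49% and 1.56% of 16570 genes were. *Ebf1* was at 1523 CPM (1484 to 1564) against 96.0 CPM (90.4 to 102), a ratio of 15.9. *En1* was at 17.7 CPM (13.7 to 22.6) against 78.4 CPM (73.3 to 83.7), and *Osr1* at 34.6 CPM (28.8 to 41.1) against 123 CPM (116 to 129). The *En1* call was kept under all 9 alternatives and that of *Osr1* in 6 of 9, where the weakest was -0.54 with leading genes taken over all other cells. *Tbx18* at 121 and 59.1 CPM (0.92, 0.76 to 1.08) and *Prrx1* at 604 and 362 CPM (0.72, 0.65 to 0.80) were higher short of the fold, and *Twist1* at 188 and 314 CPM was lower short of it; *Tbx18* passed it in 4 and *Prrx1* in 2 of 9 alternatives. *Osr2*, at 20.15 and 40.75 CPM (-0.75), was also lower short of the fold, and its sign held in 7 of 9 alternatives. *Twist2*, at 1247 and 1359 CPM, and *Tbx15*, at 45.7 and 45.8 CPM, were near each other. Upper cells enter this comparison and that with deep cells.

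The DC-like cells were not alike. They were 3 sub-clusters of 183, 157 and 68 cells, and *Ebf1* was at 2997, 422 and 251 CPM in them while *Twist2* was at 470, 1898 and 1739 CPM. The first held most of the condensate marker *Sox18*, at 349 CPM against 68.2 and 63.7 CPM, and of *Sox2*, at 258 CPM against 54.7 and 79.1 CPM. *Foxd1* was at 184, 87.7 and 425 CPM. *Sox18*, *Sox2* and *Foxd1* are among the 10 markers that named these cells, so their levels are not separate evidence for the name. *Prrx1* was at 741, 459 and 595 CPM. *En1* was low in all 3, at 16.8, 21.6 and 10.3 CPM, as was *Osr1*, at 36.7, 41.2 and 12.0 CPM, and *Tbx18* was at 133, 91.1 and 162 CPM. *Osr2* was at 13.7, 12.8 and 56.8 CPM, on 22, 19 and 33 UMIs.

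In DP-like cells of P0, *Ebf1* and *Prrx1* were higher and *Twist2* and *Osr2* lower than in upper dermal-like cells. The counts were 2 higher and 2 lower of 9, where 4.88% and 2.18% of 14601 genes were. *Ebf1* was at 3742 CPM (3639 to 3847) against 165 CPM (148 to 183), a ratio of 22.7, and 99.5% of thinned DP-like cells had an *Ebf1* UMI against 24.6% of upper and 6.00% of immune-like cells. The log2 difference of *Ebf1* was 4.42 and ran from 2.95 without called doublets to 5.19 with 3 of 10 condensate markers, and 181 of the 346 upper UMIs came from the sub-cluster of 30 cells. *Prrx1* was at 400 CPM (367 to 436) against 50.5 CPM (41.3 to 61.1). *Twist2* was at 257 CPM (230 to 286) against 1112 CPM, and *Osr2* at 153 CPM (132 to 175) against 1053 CPM. With at least 2500 genes per cell the differences of *Twist2* and *Osr2* went from -2.07 and -2.71 to -0.66 and -0.69, under the fold. That setting left 115 upper and 111 DP-like cells. The difference of *Prrx1* went from 2.76 to 1.31 without called doublets. Only 12 dermal-like cells of P0 were called doublets, but clustering again without doublets gave 989 upper cells in place of 395. The part of this regrouping in the *Prrx1* and *Ebf1* values was not tested. *Twist1* was at 255 CPM (229 to 284) against 300 CPM, with no call. The DP-like cells were sub-clusters of 148 and 42 cells, with *Ebf1* at 3120 and 5223 CPM, *Twist2* at 301 and 152 CPM, *Prrx1* at 361 and 495 CPM and *Osr2* at 197 and 45.7 CPM.

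*En1* differed between these groups. It was at 72.9 CPM (59.1 to 88.9) in DP-like cells of P0, near the 71.9 CPM (60.9 to 84.4) of upper cells (log2 difference 0.02, -0.32 to 0.35), and at 17.7 CPM in DC-like cells of E16.5. These are separate libraries, and no test of the change in the difference could be made. The share of thinned cells with an *En1* UMI was 6.62% of DC-like and 22.7% of upper cells at E16.5, and 25.3% of DP-like and 24.3% of upper cells at P0, with 1.14% and 2.24% of endothelial-like cells; unthinned it was 14.5% and 48.4%, 35.8% and 31.6%, and 5.41% and 5.22%.

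**Figure D4:**
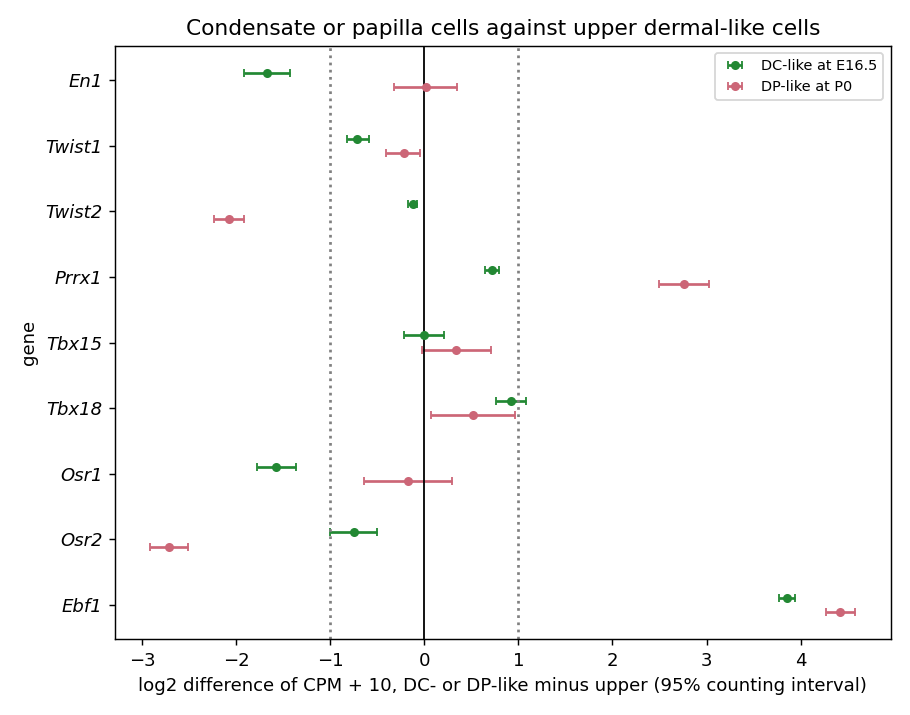
Log2 difference of CPM + 10 of DC-like cells (E16.5) and DP-like cells (P0) from upper dermal-like cells of the same library for each gene, with 95% counting intervals; dotted lines mark the fold. *Ebf1* lies at 3.85 and 4.42, and *En1* at -1.67 at E16.5 and 0.02 at P0.

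Across the dermal sub-clusters of at least 50 cells (10, 14 and 9 by stage), the members differed in how much they varied. *Ebf1* ranged from 13.7 to 295 CPM, 37.8 to 2997 CPM and 86.0 to 3120 CPM. *En1* varied 2.50-fold at E13.5 and 2.19-fold at P0, and 8.93-fold at E16.5, where the lowest was a DC-like sub-cluster of 68 cells at 10.3 CPM. *Tbx15* varied between 2.46- and 3.71-fold at the 3 stages. *Osr2* ranged from 18.7 to 401 CPM, 12.8 to 195 CPM and 123 to 1084 CPM; its highest sub-cluster was deep dermal-like at E13.5 and E16.5 and upper dermal-like at P0. *Prrx1* at P0 was lowest in the upper sub-cluster of 365 cells, at 37.5 CPM, and highest among these in the DP-like one of 148 cells, at 361 CPM. The E13.5 sub-cluster lowest in *En1*, *Twist1*, *Twist2*, *Prrx1*, *Tbx15* and *Tbx18* was 1 group of 73 dermal-like cells with no subset name, where *Twist2* was at 75.2 CPM and *Ebf1* at 295 CPM.

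**Figure D5:**
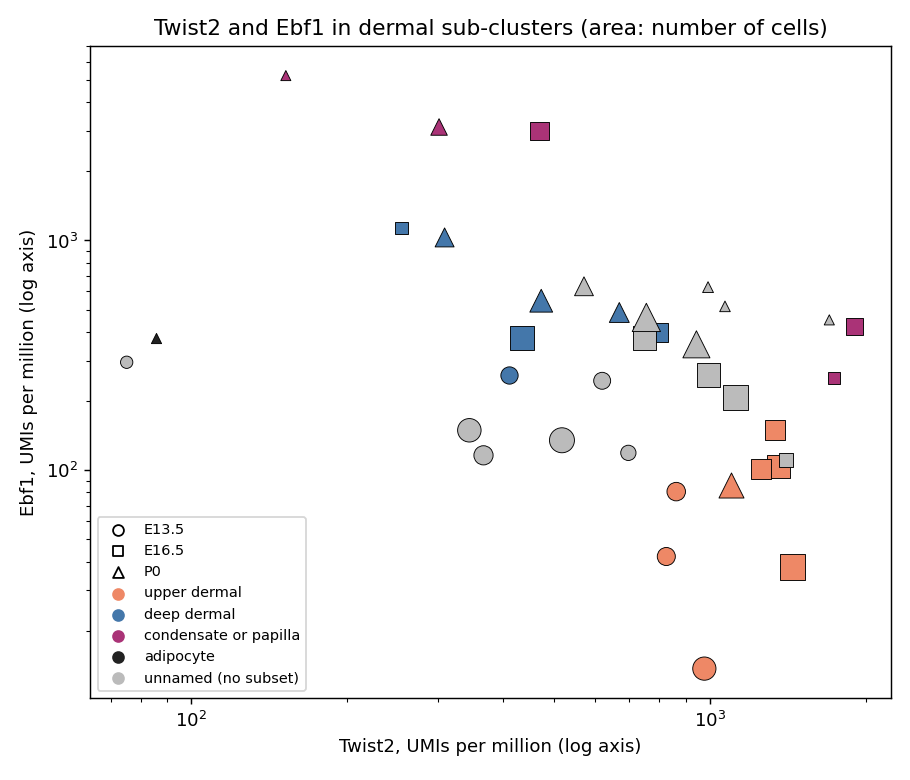
*Twist2* (x axis) against *Ebf1* (y axis), both in CPM on log axes, in dermal-like sub-clusters of at least 40 cells; shape gives the stage, colour the subset and area the number of cells. The upper dermal-like sub-clusters of this size lie at the lower right, and the DC-like one of 183 cells and both DP-like ones lie at the top, at 2997, 3120 and 5223 CPM of *Ebf1*. An upper dermal-like sub-cluster of 30 cells at P0, at 1257 CPM of *Twist2* and 1002 CPM of *Ebf1*, is too small to be drawn.

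Genes with the most similar pattern were sought over 33 groups of at least 50 cells from the 3 libraries, among 10363 genes, by Pearson correlation of log2(CPM + 10). The groups share libraries, dermal transcripts in other lineages and the naming markers, so the values are descriptive. *En1* and *Tbx15* were each other's nearest gene (r = 0.93), and *Twist1* stood among the 3 nearest of both (0.91 with *En1* and 0.90 with *Tbx15*), followed for *En1* by *Ctsk*, a cathepsin gene (0.90), and preceded for *Tbx15* by *Meg3*, a long non-coding RNA (0.91). *Twist1* was nearest to *Scarf2* (0.96), *Cdh11*, a mesenchymal cadherin (0.94), and *Ror2*, a Wnt receptor (0.94). *Twist2* was nearest to *Pth1r*, a parathyroid hormone receptor (0.96), the proteoglycan gene *Lum* (0.94) and *Tmem132c* (0.93). *Prrx1* was nearest to *Gm26523* (0.97), *Ddr2*, a collagen receptor (0.93), and *Cdo1* (0.93). *Tbx18* was nearest to *Ednra* (0.87), *Shox2* (0.86) and *Snai1* (0.86), and *Osr1* to *Vcam1* (0.95), *Peg3* (0.94) and *Igdcc4* (0.93). The nearest genes were *Cys1*, *Rab40b* and *Adam33* (all 0.82) for *Osr2*, and *Csrp2* (0.88), *Thra* (0.81) and *Eva1b* (0.78) for *Ebf1*. *Lum* was among the markers that named the groups.

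Genes of the same families and settings were counted beside the members. Of 50 related genes (10 paralogs, 8 E proteins, Id proteins and Hand2, and 32 other mesenchymal factors), 1, 8 and 9 were higher and 2, 4 and 2 lower in dermal-like than in non-mesenchymal cells at the 3 stages; the shares of all genes called lower were 2.06%, 3.83% and 3.91%. *Prrx2*, the paralog of *Prrx1*, was the paralog called higher each time, at 175 against 61.2 CPM, 246 against 24.4 CPM and 117 against 7.11 CPM. At E16.5 *Shox2* (86.8 against 8.77 CPM), *Snai1* (84.4 against 9.65 CPM) and *Zic1* (67.8 against 7.70 CPM) were also higher, and at P0 *Zeb2* (342 against 44.3 CPM), *Zic1* and *Snai1*. At E13.5 the nuclear receptor *Nr2f2* (21.5 against 64.3 CPM) and *Pax3* (1.18 against 14.97 CPM) were lower. Between stages, 3 of the 50 were higher and 4 lower at E16.5 than at E13.5, where 1.31% and 1.35% of all genes were. Among those of the 50 were *Pax1* (34.5 to 1.40 CPM), *Snai1* (17.1 to 84.4 CPM), *Shox2* (23.3 to 86.8 CPM) and *Zeb2* (163 to 471 CPM). From E16.5 to P0 *Meox2* was higher (5.40 to 29.0 CPM), and *Id1* (202 to 86.8 CPM) and *Prrx2* (246 to 117 CPM) were lower. At that step 1.42% of all genes were higher and 1.85% lower.

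Of the 8 genes for E proteins, Id inhibitors and Hand2, which can pair with Twist proteins or with their partners, 5, 6 and 4 were not called between the layers at the 3 stages. In upper against deep cells 2 were higher and 1 lower at E13.5, 2 higher at E16.5, and 2 higher and 2 lower at P0, with median log2 differences of -0.24, 0.38 and 0.01 against 0.02, 0.01 and 0.06 over all genes. *Tcf4*, an E protein, was at 1147 CPM in upper and 406 CPM in deep cells at E16.5 and at 924 and 222 CPM at P0, and *Tcf12* was at 177 and 61.2 CPM at P0. *Id2*, an inhibitor that binds E proteins, was at 79.5 and 363 CPM at P0. *Meox2* was deep-sided at E13.5 (1.59 in upper and 48.5 CPM in deep cells) and at E16.5 (1.40 and 18.1 CPM) and upper-sided at P0 (112 and 17.7 CPM), the same order of signs as *Osr2*. Other related genes past the fold were *Ebf3* (4.89 and 52.8 CPM), *Zeb2* (279 and 65.5 CPM) and *Nr2f1* (5.02 and 43.7 CPM) at E13.5, and *Shox2* (146 and 33.5 CPM) and *Zeb1* (14.6 and 68.2 CPM) at E16.5. Over all 50, 4, 5 and 3 were higher and 5, 4 and 3 lower at the 3 stages. Of all genes, 2.52%, 0.953% and 2.3% were higher and 2.27%, 1.94% and 2.34% lower.

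In DC-like against upper cells, 1 of the 50 related genes was higher, the homeobox gene *Alx4* (30.0 against 3.16 CPM), and 1 was lower, *Id2* (117 against 282 CPM). Of all genes, 1.49% were higher and 1.56% lower. In DP-like against upper cells 11 of the 50 were higher and 1 lower, where 4.88% and 2.18% of all genes were. *Alx4*, at 74.4 CPM in the papilla group, rested on 1 UMI in upper cells, *Id1* was at 313 against 39.1 CPM and *Id3* at 717 against 118 CPM. *Meox2* was the one lower, at 8.26 against 112 CPM.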

How the data were processed

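The deposited table holds 1 column per cell and 1 row per gene, with natural log values of 1 plus the UMI count scaled to 10000 per cell, which the authors made with Cell Ranger 2.2.0 on mm10 and Seurat, after genes seen in under 3 cells and cells of under 1750 genes were dropped. Whole UMI counts were recovered from each cell's smallest step: all 48197283 values above 0 were whole within 0.001. No count model was fitted, since each stage is 1 library.

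Each library was clustered separately (2000 variable genes without the 9 genes and cell cycle genes, 30 principal components, 15 neighbours, Leiden resolution 1, scanpy 1.11.5). A cluster took the name of the marker list with the largest mean log2 difference from the 25th percentile of clusters, where at least 3 markers stood 1 or more above it and its 10 leading genes did not go against the name; clusters of at least 100 cells that failed were split once. A dermal subset also needed a mean of 1, and DC- or DP-like cells 7 of 10 markers. The use of the reference for leading genes, the split and both subset minimums were set after clusters and levels of the 9 genes had been seen. The 9 genes and all lists were chosen with earlier results of these data known.

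Log2 differences are of CPM + 10, and their intervals join the exact 95% Poisson bounds of both sums. Shares of cells are also given after thinning to 3500 UMIs. Doublets were not removed in the main values. Up to 4 related genes past the fold are named per comparison, those with the largest difference, and the 3 most similar genes per member (at least 200 UMIs in all and 20 CPM in 1 group). The calculation was tested on simulated data. Genome positions are from GENCODE vM21 and promoter windows from RefSeq. The study's own cluster labels were not used here.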

Additional observations from a re-analysis of the deposited data

Results flagged for a closer look

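*Osr2* was lower in upper than in deep dermal-like cells at E13.5 (log2 difference -3.46) and E16.5 (-1.65) and higher at P0 (1.48). It stands here because the sign of one contrast differed between stages with intervals that left out 0 on both sides. Each stage is 1 library, so the difference between stages was not tested.

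*Tbx18* was higher in upper cells at E13.5 (0.93, on 14 UMIs in deep cells) and slightly lower at E16.5 (-0.17), for the same reason, and this difference was not tested either. Neither main value reached the fold. The E16.5 value changed sign in 2 of 11 alternatives (0.27 with the median as reference). The E13.5 value ran from 0.20 with a subset mean of 0.5 to 1.47 with pseudocount 1, and 2 of 8 alternatives put it past the fold.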

How the results depend on the processing

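No paired analysis was possible because each stage is 1 library and no numbers pair cells between stages. The 10 counts of members called were recomputed under 12 alternatives, of which the 3 on naming rules (leading genes over all other cells, a subset mean of 0.5, 3 of 10 condensate markers) were chosen after seeing the data, and upper against deep also by the ends of a marker score. The 3 counts against non-mesenchymal cells and those at E16.5 against E13.5 and at E13.5 between layers moved by at most 1. The count of 5 between layers at P0 was the least stable: it was 2 at resolution 0.5, at resolution 2, with leading genes over all other cells and with a subset mean of 0.5; 3 with at least 2500 genes per cell, without called doublets and with cell cycle genes kept; and 1 with the marker score. At least 2500 genes per cell gave 5 in place of 3 for P0 against E16.5 and 2 in place of 4 for DP-like cells. The median as reference gave 5 in place of 3 between layers at E16.5, and cell cycle genes kept gave 5 in place of 3 for DC-like cells. The cause was not tested.

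Of 49 called differences, 47 kept their sign and 38 their call under every alternative that gave a value. The 2 that reversed, both between layers at P0 with the marker score, were *Prrx1* (0.345 in place of -1.48) and *Ebf1* (0.858 in place of -1.98). Among 41 differences not called, 16 changed sign under some alternative. No value could be had where a subset was not formed or, for DP-like cells, held under 50 cells: between layers at E13.5 (resolution 0.5, median as reference, the 9 genes or cell cycle genes kept, leading genes over all other cells), between layers at E16.5 (resolution 0.5, the 9 genes kept) and at P0 (median as reference), for DC-like cells (resolution 0.5, median as reference, the 9 genes kept) and for DP-like cells (median as reference, cell cycle genes kept). Scrublet called 0 doublets at E13.5, which is not taken as their absence, and 84 and 106 at E16.5 and P0. Counting only genes with at least 50 UMIs raised each share of genes called, for example from 3.22% to 4.25% higher in dermal-like cells at E16.5. Thinning lowered the shares of cells with a UMI.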
